A study of Mus musculus with 9 samples.

Results

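The nuclear genes for subunits of the oxidative phosphorylation complexes were taken from the deposited count table by symbol. The rows chosen start with Ndufa, Ndufb, Ndufc, Ndufs or Ndufv and a number, are one of Sdha to Sdhd, or start with Uqcr, Cox4 to Cox8, or Atp5, and rows marked as pseudogenes by "-ps" were left out. This gave 91 of the 52264 rows: 42 for complex I, 4 for complex II, 8 for complex III, 19 for complex IV and 18 for complex V. Rows were assigned by symbol, so Ndufa4 and Ndufa4l2 count under complex I, although the Ndufa4 protein is known as a subunit of complex IV. Of these, 85 had enough reads to be tested. The 6 others were Cox6c2 and Cox8b, with no read in any library, Ndufa11b, Ndufs6b and Atp5o.1, with at most 1 read per library, and Cox8c, with at most 8.

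The libraries came from mouse embryonic stem cells (ESCs) labelled β-catenin-/-, a genotype that all 3 groups share. Cells were grown on dishes treated with feeder cells and expanded, per the growth protocol, with 3 µM CHIR-99021, 1 µM PD03 and 40 ng/ml LIF. All were then moved to N2B27 medium overnight and given BRD0705, CHIR or the control condition for 30 minutes, with 3 libraries per group. The sample labels call the controls untreated and the protocol calls them Ctr, and no vehicle is named. The doses of the 30-minute treatment are not given in the sources used here, so the inhibitors cannot be compared at matched doses. BRD0705 is known as an inhibitor selective for the kinase GSK3α, and CHIR-99021 as an inhibitor of both GSK3 kinases. The CHIR group therefore met again a compound that was in the expansion medium of every group.

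Oxidative phosphorylation makes ATP in the inner membrane of the mitochondrion. Complexes I and II pass electrons from NADH and succinate to coenzyme Q, complex III passes them on to cytochrome c, and complex IV passes them to oxygen. Complexes I, III and IV pump protons as they do so, and complex V, the ATP synthase, uses the proton gradient. The mitochondrial genome codes for a few core subunits, and nuclear genes, the ones described here, code for all others. Naive ESCs respire while also running glycolysis.

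Each library held 17359422 to 20773337 counts. The level of a gene in a library is given as CPM, its count divided by the library total on a fixed scale after TMM scaling (a correction for differences in library composition). The row of Ctnnb1, the gene of β-catenin, read 303 to 371 CPM in the 9 libraries, and these counts do not show which exons were read. Counts of single subunit rows that were tested ran from 6 upwards. Pluripotency markers were present in all libraries (10 of 10 listed genes tested), with Pou5f1 at a mean of 945 CPM in control. Feeder fibroblast markers were present too: 14 of 14 listed genes were tested, none was at 0, and Col1a1 averaged 1388 CPM in control. The dishes were feeder treated, and whether this RNA came from feeder cells or from the ESC culture itself was not tested. In such bulk libraries, fewer cells of a type and less RNA per cell cannot be told apart. Nothing in the labels says that the replicates were separate cultures, so p-values measure only the spread between these samples.

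One row needs its sequence before its counts. Ndufb4 codes for a small accessory subunit of the membrane arm of complex I, and Ndufb4c is listed as a separate row. RefSeq (GRCm38.p6) places Ndufb4 at chr16:37647602-37654368 and Ndufb4c at chr15:73809449-73809933. GENCODE vM39 calls the latter a transcribed processed pseudogene, that is, a copy of a spliced mRNA, while RefSeq lists it as protein coding. All 390 bases of the Ndufb4c transcript are the same as bases 95 to 484 of the Ndufb4 transcript, and bases 1 to 180 are shown because they read alike in both. Capitals mark the first codon.
Ndufb4c: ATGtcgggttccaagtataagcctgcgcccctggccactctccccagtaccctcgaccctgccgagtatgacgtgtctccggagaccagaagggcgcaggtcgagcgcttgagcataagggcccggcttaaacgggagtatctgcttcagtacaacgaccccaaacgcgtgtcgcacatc

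All 341 stretches of 50 bases in Ndufb4c also occur in another GENCODE transcript. A read of that length inside Ndufb4c therefore cannot be told from a read of Ndufb4, and the counter's split between both rows is an estimate. For Ndufb4 itself, 38.4% of the 50-base stretches are shared, most of them with Ndufb4b, which is not a row of the table.

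Upstream sequence is shown for Ndufb10 and Cox7a2, the 2 genes with a fall under BRD0705 for which no shared 50-base stretch and no exon on the opposite strand was found. Shared stretches were sought only in the GENCODE canonical transcript of each gene. That of Cox7a2 has 765 stretches, while its listed transcripts have a median length of 2928 bases, so part of their sequence was not searched. Both stretches come from RefSeq promoter windows (GRCm38.p6, minus strand, 250 bases before the annotated start), without bases that a GENCODE transcript covers. The Cox7a2 stretch is chr9:79759854-79760103, which precedes a start inside the span of the gene. The Ndufb10 stretch is chr17:24724480-24724673. Capitals mark the letters GGGCGG, the motif of SP1.
Cox7a2: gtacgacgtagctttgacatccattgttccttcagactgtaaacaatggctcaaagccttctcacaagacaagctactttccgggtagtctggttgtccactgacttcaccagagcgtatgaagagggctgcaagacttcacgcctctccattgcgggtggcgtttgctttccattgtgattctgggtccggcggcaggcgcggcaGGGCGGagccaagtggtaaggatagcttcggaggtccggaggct
Ndufb10: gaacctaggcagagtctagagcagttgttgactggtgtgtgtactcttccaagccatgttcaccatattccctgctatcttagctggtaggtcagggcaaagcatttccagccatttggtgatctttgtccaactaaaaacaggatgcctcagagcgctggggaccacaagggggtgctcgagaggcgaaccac

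RefSeq promoter windows (250 bases before to 50 after a start) were found for 69 of the 91 rows, which have 74 windows. Motif letters were searched on both strands. The NRF1 motif stood in 24.3% of the subunit windows, in 9.01% of the 14592 windows of all tested genes and in 4.603% of all 32851 windows. NRF1, nuclear respiratory factor 1, is known as a regulator of respiratory chain genes. The YY1 motif stood in 6.76% of the subunit windows and 1.80% of the tested genes' windows, and the ETS letters CCGGAAG, as bound by GABPA, in 23.0% and 16.2%. The SP1 letters GGGCGG were in 39.2% of the subunit windows against 60.8% of the tested genes' windows, and the TATA box letters TATAAA in 12.2% against 7.44%. A match is a description of the letters only.

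Transcripts of all 5 complexes were abundant. The 91 rows together took 0.936% to 1.05% of the counts of a library. Complex V rows held 45.1% of the counts of all subunit rows, complex I rows 21.8%, complex IV rows 19.5%, complex III rows 10.2% and complex II rows 3.39%. To compare genes, CPM was divided by transcript length in kb (length from GENCODE, median over transcripts with a consensus coding sequence), so a level per kb depends on which transcripts are listed. On that scale the median was 133 CPM per kb for the 16 tested complex IV rows, 128 for complex V, 60.9 for complex III, 39.2 for complex I and 31.8 for complex II. Atp5b, the catalytic β subunit of ATP synthase, was at 813 CPM per kb, and Atp5a1, its α partner, at 379. In complex IV, Cox6a1 was at 577 CPM per kb and Cox7c at 527. Ndufa7 (347) and Ndufa3 (167) led complex I, and Uqcr10 (336) and Uqcrb (225) complex III. Sdha (46.1) and Sdhd (40.8) led complex II, and these values too are in CPM per kb. Of the 50-base stretches, 59.9% in Cox7c and 41.3% in Uqcrb are shared with other transcripts, so their levels may depend on how reads were split.

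**Figure D1:**
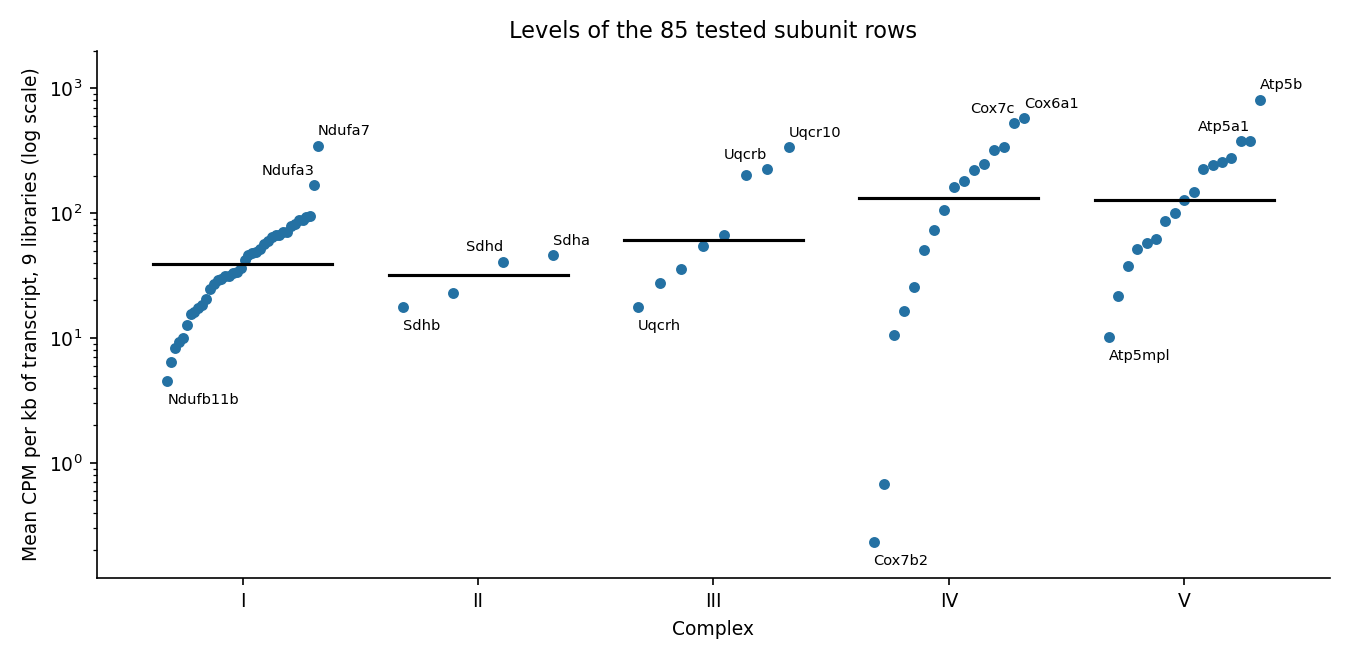
Mean level over the 9 libraries of each of the 85 tested subunit rows in CPM per kb of transcript (log scale), by complex; each point is a row, the black line the median of its complex, and the 2 highest and the lowest row of each complex are named. Complex IV and V medians lie above 100 CPM per kb, those of complexes I and II below 40.

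Several subunits have isoforms known from other tissues, and most of these were low. Cox4i2, the isoform known from lung, was at 10.6 CPM per kb, and in single libraries at 3.10% to 5.72% of the level per kb of Cox4i1. Cox6a2, known from heart and muscle, was at 0.672 CPM per kb, at most 0.194% of Cox6a1. Cox7b2 was at 0.233 CPM per kb, at most 0.196% of Cox7b. Cox8b, the muscle form, had no read and Cox8c at most 8, while Cox8a stood at 337 CPM per kb. Cox6b2, known as the testis isoform, was higher than these: 50.9 CPM per kb, or 12.2% to 19.0% of Cox6b1. Cox7a1 reached 55.0% to 80.3% of the level per kb of Cox7a2, whose listed transcripts are long (median 2928 bases, against 441 for Cox7a1). Before division by length, Cox7a1 averaged 7.29 CPM and Cox7a2 74.8 CPM over the 9 libraries, so this ratio rests largely on the length used. Ndufa4l2, a relative of Ndufa4 known to be raised in hypoxia, stood at 77.0% to 112% of Ndufa4 per kb. Shmt2 overlaps Ndufa4l2 on the opposite strand, and no source used here says whether counting used strand. The level of the Ndufa4l2 row may therefore include reads of Shmt2. Of the 3 genes that code for the same c subunit of the ATP synthase rotor, Atp5g2 was at 375 CPM per kb, Atp5g1 at 258 and Atp5g3 at 101. The order Atp5g2, Atp5g1, Atp5g3 held in each of the 9 libraries, with Atp5g1 at 60.3% to 75.5% and Atp5g3 at 23.7% to 29.8% of Atp5g2. Of the 50-base stretches, 88.0% in Atp5g2 and 70.9% in Atp5g1 also occur in other transcripts, against 0 in Atp5g3. The levels of Atp5g2 and Atp5g1, and so this order, may depend on how reads were split between rows.

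Under BRD0705, 7 of the 85 tested subunit rows were lower than in control and 0 were higher (edgeR quasi-likelihood test, Benjamini-Hochberg adjusted p under 0.05 over 15366 genes), or 8.24% of the rows. Over all tested genes, 1.22% passed that threshold, 0.534% with a lower and 0.69% with a higher level. The 7 rows were Atp5j and Atp5mpl of complex V, Cox4i1, Cox6c and Cox7a2 of complex IV, and Ndufb10 and Ndufb4c of complex I. The median log2 fold change of the 85 rows was -0.14, against -0.0038 for all genes tested. It was below 0 for 67 of the 85 rows (51% of all genes), and 31 rows, 36.5%, had every BRD0705 library below every control library (10.4% of all genes). In the other direction, Atp5md alone had every BRD0705 library above every control library (9.83% of all genes). At an unadjusted p under 0.05, 38 rows were lower (8.08% of all genes) and 3 higher (7.77% of all genes), Atp5md, Cox4i2 and Cox6b2.

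**Figure D2:**
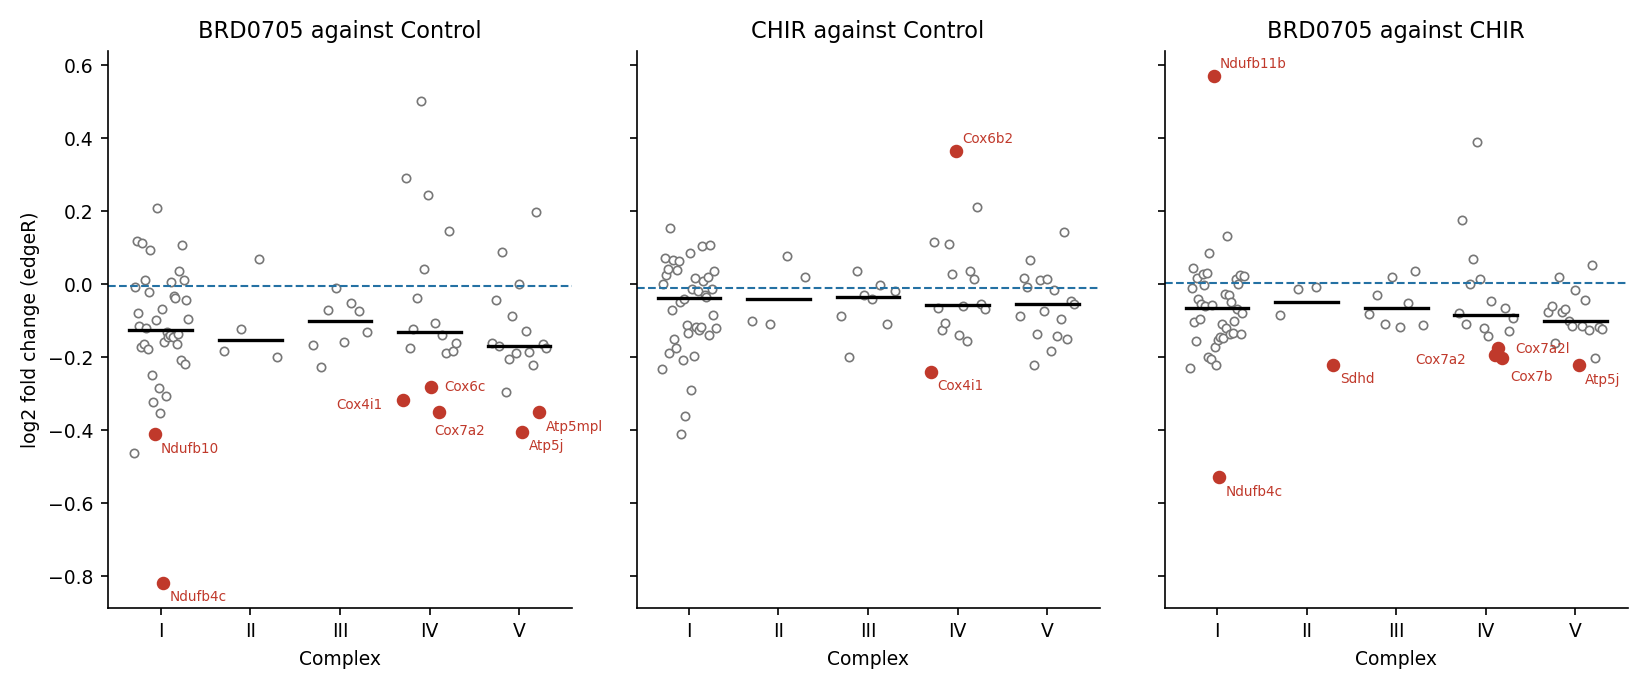
log2 fold change (edgeR) of the 85 tested subunit rows by complex in the 3 comparisons; each point is a row, filled red and named where the adjusted p was under 0.05, the black line is the median of the complex and the dashed blue line the median of all 15366 genes tested. All 5 complex medians lie below the dashed line in each panel.

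The 3 libraries of the BRD0705 group were not alike. For each tested row, the deviation of its log2 CPM from its mean over the 9 libraries was taken, and the median over the 85 rows was computed per library. It was 0.08, 0.03 and 0.09 in control replicates 1, 2 and 3, and -0.11, -0.12 and 0.03 in the BRD0705 replicates. In BRD0705 replicates 1 and 2, 72 and 71 of the 85 rows lay below their mean, and in replicate 3 only 33 did. BRD0705 replicate 3 thus lay within the range of the control libraries (0.03 to 0.09) by this measure. The CHIR libraries were at 0.03, -0.03 and 0.03.

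Feeder markers, transcript length and GC content also differed between the BRD0705 and control libraries, and their part in the result was not tested beyond the values given here. Of these, length followed the split within the BRD0705 group. Feeder fibroblast markers had a mean log2 CPM of 6.54 to 6.62 in the BRD0705 libraries and 6.23 to 6.47 in control, with all 14 markers higher on average and 2 of 14, Col1a1 and Col5a1, past the threshold. With that marker level as a covariate, the subunit median was -0.14, while 0 of 85 rows and 0 of all genes passed. Over all tested genes the deviation of a library had a Spearman correlation with transcript length of 0.11 and 0.19 in BRD0705 replicates 1 and 2, and -0.06 in replicate 3. It was -0.15 to 0.02 in control and -0.07 to -0.01 under CHIR. With GC content that correlation was 0.26, 0.05 and 0.22 in the BRD0705 libraries and 0.19, -0.29 and -0.16 in control. The subunit transcripts are short: their median length was 1024 bases, against 3161 for all tested genes. With length and GC content fitted by splines and taken out of each library, the subunit median was -0.08 (all genes -0.01). In that fit 5 rows were lower (Atp5j, Cox4i1, Cox7a2, Ndufb10 and Ndufb4c) and 1 higher (Atp5md), while 0.742% of all tested genes passed.

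**Figure D3:**
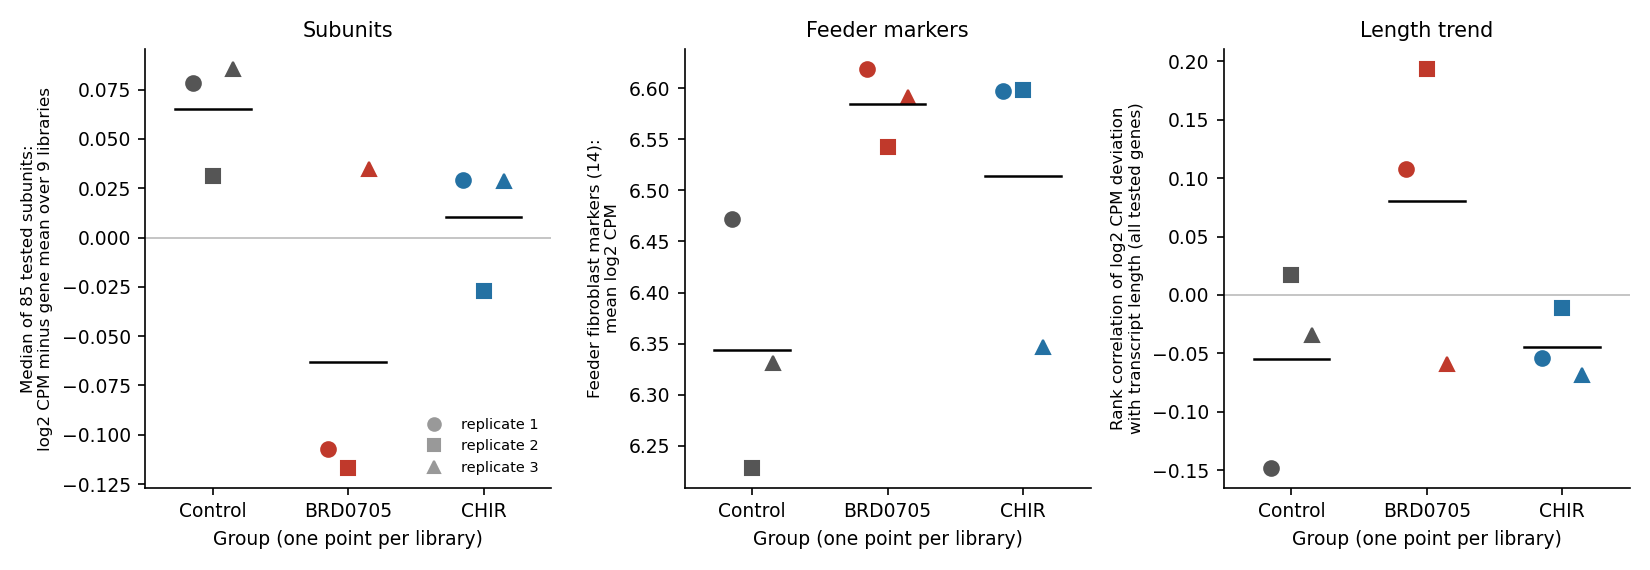
Per library, the median deviation of the 85 tested subunit rows from their mean over 9 libraries (log2 CPM), the mean log2 CPM of 14 feeder fibroblast markers, and the Spearman correlation over all tested genes of the deviation with transcript length; points are libraries, shapes replicate numbers, and black lines group means. BRD0705 replicates 1 and 2 are lowest in the left panel and highest in the right, and BRD0705 replicate 3 lies with the control and CHIR libraries in both.

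In complex V, Atp5j and Atp5mpl fell under BRD0705. Atp5j (chr16:84827871-84835857) codes for coupling factor 6 of the peripheral stalk, which holds the catalytic head still. It read 76.5, 81.5 and 77.7 CPM in control, 57.9, 62.7 and 57.6 under BRD0705, and 64.6, 74.6 and 68.5 under CHIR. All BRD0705 libraries lay below all others, replicate 3 included. The log2 fold change against control was -0.40 ± 0.06 (SE; adjusted p = 0.00525, edgeR). Exons of Gabpa and Jam2 overlap Atp5j on the opposite strand, and no source used here says whether counting used strand.

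Atp5mpl (chr12:111961374-111967009) codes for a very small subunit of the membrane part of ATP synthase, also called 6.8PL. It read 33.7, 34.1 and 33.9 CPM in control, 27.1, 22.4 and 30.0 under BRD0705 and 30.5, 30.6 and 30.7 under CHIR. The controls differed from each other by less than the BRD0705 libraries did, and no BRD0705 library reached a control value. Its log2 fold change was -0.35 ± 0.08 (SE; adjusted p = 0.0426, edgeR), close to the threshold. An exon of Gm36757 overlaps it on the opposite strand.

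Over the whole of complex V, the median log2 fold change under BRD0705 was -0.17 over 17 rows, and 14 of them were below 0. The 5 rows of the F1 head had a median of -0.16 and the 12 rows of the membrane part and stalk -0.18. The most abundant row, Atp5b, read 1570.3, 1549 and 1606 CPM in control and 1502, 1466 and 1616 under BRD0705, so the groups overlapped. Atp5a1 read 1006, 966 and 1000.03 CPM in control and 879.5, 852 and 926 under BRD0705, with no overlap between the groups, but its adjusted p was 0.115 (edgeR). Atp5md, a small membrane-part subunit also called DAPIT, went the other way in level: 104.5, 105 and 115 CPM in control and 123.5, 115 and 133 under BRD0705 (adjusted p = 0.120, edgeR). Exons of Pdcd11 and Taf5 overlap Atp5md on the opposite strand, and 9.16% of its 50-base stretches are shared. Atpif1, the inhibitor of ATP synthase, which the symbol rule does not take in, averaged 435 ± 23.5 CPM in control and 476 ± 33.8 under BRD0705 (SD, n = 3 each).

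In complex IV, the rows Cox4i1, Cox6c and Cox7a2 fell under BRD0705. Cox4i1 (chr8:120668225-120674209), the ubiquitous form of the largest nuclear subunit and a site of control by ATP, read 239.7, 223 and 213 CPM in control, 171, 178 and 194 under BRD0705, and 199, 179 and 194 under CHIR. Both inhibitor groups lay below the control range without overlap. The log2 fold change was -0.32 ± 0.06 under BRD0705 (SE; adjusted p = 0.0177, edgeR). It was -0.24 ± 0.06 under CHIR (SE; adjusted p = 0.0262, edgeR). These contrasts share the control libraries, and the direct difference between the inhibitors did not pass (adjusted p = 0.499, edgeR). Exons of Emc8 and Gm27021 overlap Cox4i1 on the opposite strand.

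Cox7a2 (chr9:79755241-79771422), the widely expressed form of a small subunit at the edge of the complex, read 81.0, 84.7 and 85.003 CPM in control, 64.2, 64.7 and 67.9 under BRD0705 and 72.2, 79.2 and 74.0 under CHIR. The 3 groups did not overlap, with CHIR in between. Its log2 fold change under BRD0705 was -0.35 ± 0.06 (SE; adjusted p = 0.00587, edgeR). Cox6c (chr15:35931976-35938246), another small subunit, read 156.5, 140.5 and 148.5 CPM in control, 117, 118 and 132 under BRD0705 and 137, 128 and 139 under CHIR. Its log2 fold change under BRD0705 was -0.28 ± 0.06 (SE; adjusted p = 0.0351, edgeR). After the correction for GC content and length it was -0.15 and did not pass (adjusted p = 0.230, edgeR). Of its 50-base stretches, 21.1% are shared, most with the pseudogene Cox6c2, and Vps13b overlaps it on the opposite strand.

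The 16 tested complex IV rows had a median log2 fold change of -0.13 under BRD0705, with 11 below 0. Among the isoforms, Cox4i2 read 8.28, 6.59 and 6.997 CPM in control and 8.88, 9.67 and 8.26 under BRD0705 (log2 fold change 0.29 ± 0.12 SE, adjusted p = 0.230, edgeR). Cox6a2 had the highest log2 fold change of the rows, 0.50 ± 0.39 (SE; adjusted p = 0.583, edgeR), on 6 to 13 reads per library. Cox5a, which with Cox4i1 joins the complex early in its assembly, read 119, 108 and 109 CPM in control and 96.5, 91.8 and 109 under BRD0705 (adjusted p = 0.304, edgeR).

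In complex I, Ndufb10 fell under BRD0705. Ndufb10 (chr17:24722060-24724423) codes for an accessory subunit of the membrane arm that is needed for its assembly. It read 41.3, 36.3 and 39.1 CPM in control, 31.1, 26.0 and 30.5 under BRD0705 and 33.8, 34.5 and 32.8 under CHIR. All BRD0705 libraries lay below all CHIR libraries, and all CHIR libraries below all controls. The log2 fold change was -0.41 ± 0.07 under BRD0705 (SE; adjusted p = 0.0103, edgeR). Under CHIR it was -0.21 ± 0.07 (SE; adjusted p = 0.102, edgeR). Ndufa1, a membrane arm subunit needed for assembly, had a larger difference with a wider error: 11.04, 8.23 and 9.76 CPM in control and 6.85, 6.66 and 7.50 under BRD0705 (log2 fold change -0.46 ± 0.12 SE, adjusted p = 0.0717, edgeR).

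The 40 tested complex I rows had a median log2 fold change of -0.12 under BRD0705, with 31 below 0. The 16 matrix arm rows, which hold the NADH site and the iron-sulfur chain, had a median of -0.11 and none passed the threshold. The 20 membrane arm rows had a median of -0.13 and 1, Ndufb10, passed. The 5 core subunits of the matrix arm given next carry flavin or iron-sulfur clusters, and in each the BRD0705 libraries overlapped the control range. Ndufs1 read 86.8, 89.7 and 94.7 CPM in control and 87.5, 84.6 and 92.9 under BRD0705. Ndufs8 averaged 61.8 ± 4.90 CPM in control and 62.3 ± 4.23 under BRD0705 (SD, n = 3 each). Ndufs7 averaged 41.6 ± 0.674 and 44.8 ± 5.74 CPM and Ndufv2 105 ± 7.11 and 102 ± 4.97 in these groups. Ndufv1, the flavin subunit that takes electrons from NADH, read 66.4, 60.0 and 67.3 CPM in control and 53.9, 51.0 and 61.5 under BRD0705 (adjusted p = 0.133, edgeR).

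Complexes II and III had no row past the threshold under BRD0705. The 4 complex II rows had a median log2 fold change of -0.15 and the 8 complex III rows -0.10, with all 8 below 0. Sdha, the flavoprotein that oxidizes succinate, read 150.2, 150.1 and 153 CPM in control and 134, 127 and 138 under BRD0705, without overlap (adjusted p = 0.118, edgeR). Sdhb, the iron-sulfur subunit, averaged 75.7 ± 6.19 and 69.5 ± 6.27 CPM, and the membrane anchor Sdhc 70.7 ± 4.02 and 74.2 ± 3.30 (SD, n = 3 each). In complex III, Uqcrfs1, the Rieske iron-sulfur protein, averaged 61.7 ± 4.02 and 59.5 ± 4.16 CPM in the same groups. Uqcr10 read 172.5, 145 and 161 CPM in control and 142, 142 and 143 under BRD0705 (adjusted p = 0.205, edgeR).

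The calls under BRD0705 depended on single libraries. Without BRD0705 replicate 1 only 1 row was called, Ndufb10, and without BRD0705 replicate 2 there were 3, Atp5j, Cox7a2 and Ndufb4c. Without BRD0705 replicate 3, whose subunit median lay with the controls, 15 rows were called, all lower. Calls over all genes moved too: 0.135% of genes passed without BRD0705 replicate 1, 0.353% without replicate 2 and 1.96% without replicate 3. Without control replicate 3, Atp5j, Cox4i1 and Cox7a2 were called, and without control replicate 2, Atp5j, Cox7a2, Ndufb10 and Ndufb4c. Without control replicate 1 or CHIR replicate 2, 5 rows each were called, which leaves out Atp5mpl and Cox6c, and without CHIR replicate 3, 6 rows, without Atp5mpl. Of all genes, 1.87%, 0.237% and 0.327% passed without control replicates 1, 2 and 3. The shares were 0.626% without CHIR replicate 2 and 1.28% without CHIR replicate 3. Atp5j and Cox7a2 passed in 8 of 9 such fits, Ndufb10 and Ndufb4c in 7, Cox4i1 in 6, Cox6c in 3 and Atp5mpl in 2. The median of the rows ran from -0.17 to -0.10 over these fits. DESeq2 called 14 rows, 13 lower and 1 higher (Atp5md), and 1.76% of all genes in its fit.

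**Figure D4:**
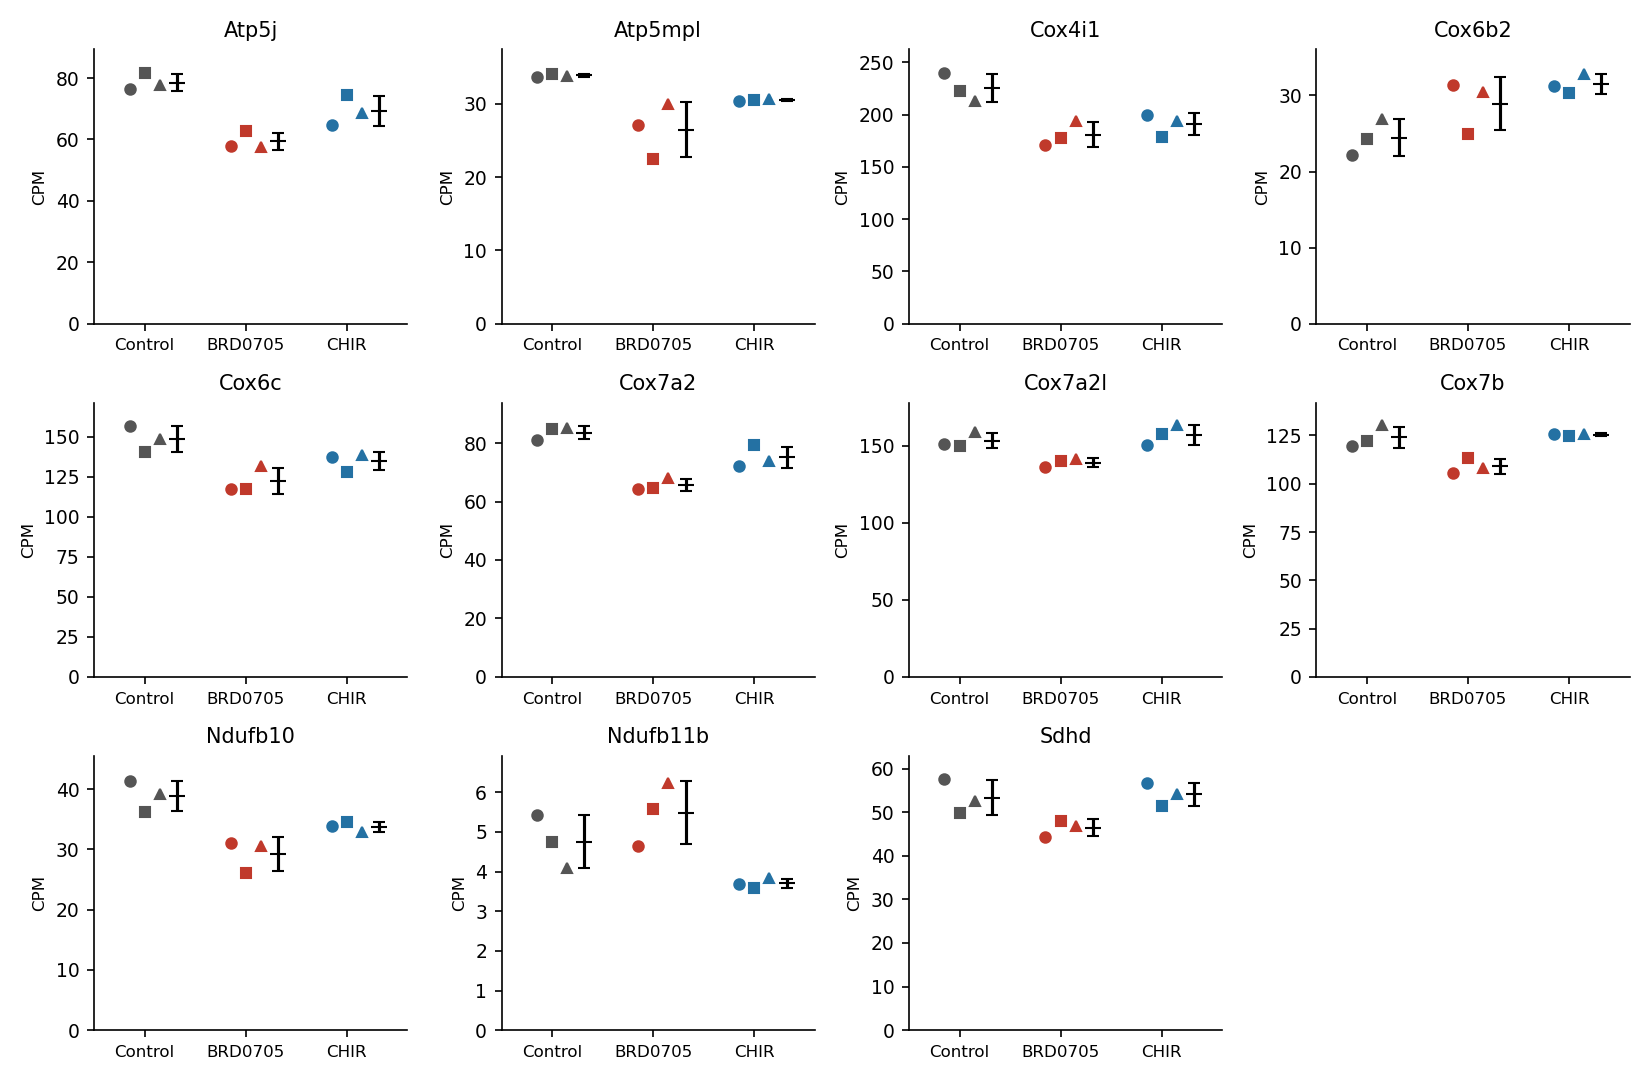
CPM per library of the 11 subunit rows other than Ndufb4c that passed in at least 1 comparison; shapes are replicates 1 (circle), 2 (square) and 3 (triangle), and black bars the group mean with its SD (n = 3). For Atp5j, Cox4i1, Cox6c, Cox7a2, Ndufb10 and Atp5mpl the BRD0705 libraries all lie below the control libraries, and for Cox6b2 the CHIR libraries all lie above them.

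Under CHIR, 2 of the 85 rows passed against control (2.35%), Cox6b2 higher and Cox4i1 lower, while 6.3% of all tested genes passed, 2.52% as higher and 3.78% as lower. At an unadjusted p under 0.05, 12 rows were lower and 2 higher, where 11.5% and 8.96% of all genes were (20.5% together). The median log2 fold change of the rows was -0.05 (all genes -0.0091), and it was 0.01 (all genes 0.04) after the correction for GC content and length. It was below 0 for 55 of 85 rows (52.4% of all genes). In 14 rows every CHIR library lay below every control library, 16.5% of the rows (14.1% of all genes), and in 2, Cox6b2 and Ndufs7, above (10.9% of all genes). By complex the medians were -0.04 for I, II and III, -0.06 for IV and -0.05 for V.

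Cox6b2 (chr7:4751792-4753094) codes for the testis form of a subunit that faces the intermembrane space. It read 22.1, 24.2 and 27.0 CPM in control, 31.3, 30.3 and 32.9 under CHIR and 31.4, 24.9 and 30.4 under BRD0705. All CHIR libraries lay above the controls, while BRD0705 replicate 2 fell within the control range. The log2 fold change was 0.36 ± 0.09 under CHIR (SE; adjusted p = 0.0172, edgeR). Under BRD0705 it was 0.25 ± 0.09 (SE; adjusted p = 0.176, edgeR). The common form Cox6b1 averaged 170 ± 9.35 CPM in control and 174 ± 22.3 under CHIR (SD, n = 3 each).

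The lowest log2 fold changes under CHIR were those of Ndufb1 and Ndufb11b. Ndufb1, a small membrane arm subunit, read 8.73, 6.93 and 9.81 CPM in control and 6.73, 5.89 and 6.51 under CHIR (log2 fold change -0.41 ± 0.14 SE, adjusted p = 0.0829, edgeR). Ndufa3, at the base of the membrane arm, was among the highest, with 71.5, 75.7 and 94.8 CPM in control and 87.9, 94.9 and 86.7 under CHIR (0.16 ± 0.09 SE, adjusted p = 0.357, edgeR). Cox7b2, also among the highest, rested on 6 to 15 reads per library (0.21 ± 0.41 SE, adjusted p = 0.837, edgeR). Without CHIR replicate 3 or control replicate 1 no row was called under CHIR, while 4.58% and 4.82% of all genes passed. Without CHIR replicate 2 only Cox6b2 was called (3.28% of all genes passed). Without control replicate 2 only Ndufb1 was, as a lower row (3.35% of all genes passed). Feeder markers had a mean log2 CPM of 6.60, 6.60 and 6.35 in the CHIR libraries, above the control mean in each of 14 markers on average. With this level as a covariate no row passed, while 1.82% of all genes did.

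BRD0705 was also set against CHIR directly, a comparison that does not use the control libraries for its fold changes. Here 6 of 85 rows were lower and 1 higher under BRD0705, 8.24% together, and 7.77% of all tested genes passed (2.97% as lower, 4.8% as higher). At an unadjusted p under 0.05, 19 rows were lower and 1 higher, where 10.5% and 12% of all genes were (22.5% together). The median log2 fold change was -0.08 (all genes 0.0038), and 65 of the 85 rows were below 0 (49.2% of all genes). In 17 rows, 20.0%, every BRD0705 library lay below every CHIR library (12.9% of all genes), and in 2, Cox4i2 and Ndufb11b, above (13.7% of all genes). The lower rows were Atp5j, Cox7a2, Cox7a2l, Cox7b, Sdhd and Ndufb4c. The higher row was Ndufb11b.

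Atp5j was lower by -0.22 ± 0.06 on the log2 scale (SE; adjusted p = 0.0406, edgeR) and Cox7a2 by -0.19 ± 0.06 (SE; adjusted p = 0.0441, edgeR). Cox7b (chrX:106015700-106022450), a small complex IV subunit, read 106, 113 and 108 CPM under BRD0705, 126, 125 and 126 under CHIR and 119.8, 122 and 130.3 in control. The BRD0705 libraries lay below the other 6, and the difference from CHIR was -0.20 ± 0.05 (SE; adjusted p = 0.0263, edgeR). After the correction for GC content and length it was -0.11 and did not pass (adjusted p = 0.185, edgeR). Cox7a2l (chr17:83501917-83514333), which is known to join complexes III and IV into supercomplexes, read 136, 140.1 and 141 CPM under BRD0705, 150.4, 158 and 163 under CHIR and 151, 149.8 and 159 in control. Its difference from CHIR was -0.18 ± 0.05 (SE; adjusted p = 0.0469, edgeR). Of its 50-base stretches 46.8% are shared, most with Gm61259, and Eml4 overlaps it on the opposite strand.

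Sdhd (chr9:50596340-50603849), a membrane anchor of complex II, read 44.4, 48.1 and 46.9 CPM under BRD0705, 56.6, 51.3 and 54.3 under CHIR and 57.6, 49.8 and 52.5 in control. The BRD0705 libraries lay below the other 6. The difference from CHIR was -0.22 ± 0.07 (SE; adjusted p = 0.0488, edgeR). Timm8b overlaps Sdhd on the opposite strand.

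Ndufb11b is named after the complex I subunit Ndufb11, with which its transcript matches at 78.2% of 527 aligned bases. It read 4.65, 5.58 and 6.22 CPM under BRD0705, 3.69, 3.58 and 3.83 under CHIR and 5.42, 4.75 and 4.09 in control. Of the 3 groups CHIR was the lowest, without overlap, and BRD0705 and control overlapped. The difference of BRD0705 from CHIR was 0.57 ± 0.16 (SE; adjusted p = 0.0336, edgeR). At 65 to 131 reads per library it was 5.54% to 10.9% of Ndufb11 per kb.

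These direct calls also rested on single libraries, and DESeq2 called 7 lower rows and not Ndufb11b. With all libraries the share of rows called, 8.24%, was near the 7.77% of all genes. The share of all genes called in each fit below is not given here, so these counts cannot be read as particular to the subunits. Without CHIR replicate 2 or CHIR replicate 3 no row was called. Without BRD0705 replicate 1 the only call was Ndufb11b, and without BRD0705 replicate 3 the 4 calls were Atp5mpl, Ndufa9, Ndufb3 and Uqcrq, none of which passed with all libraries. There were 3 calls each without BRD0705 replicate 2 (Atp5j, Cox7b and Ndufb4c), without CHIR replicate 1 (Atp5j, Cox7a2l and Ndufb4c) and without control replicate 3 (Ndufb11b, Cox7b and Ndufb4c), and 4 without control replicate 2. With scaling by library size alone, 2 rows passed, Ndufb11b and Ndufb4c. In this comparison the feeder marker median was 0.08, with no marker past the threshold.

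Ndufb4c carried the largest difference of the subunit rows under BRD0705. It read 14.4, 13.5 and 15.8 CPM in control, 8.93, 9.56 and 6.51 under BRD0705 and 9.37, 13.8 and 12.7 under CHIR. The BRD0705 and control libraries did not overlap, and the CHIR libraries reached into both ranges. The log2 fold change against control was -0.82 ± 0.14 under BRD0705 (SE; adjusted p = 0.00928, edgeR). Under CHIR it was -0.29 ± 0.14 (SE; adjusted p = 0.239, edgeR). Directly against CHIR, BRD0705 was at -0.53 ± 0.15 (SE; adjusted p = 0.0344, edgeR).

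Ndufb4 read 60.5, 62.5 and 71.3 CPM in control, 64.4, 58.3 and 62.7 under BRD0705 and 67.6, 65.8 and 72.6 under CHIR, so all groups but BRD0705 and CHIR overlapped. Its log2 fold change was -0.07 ± 0.07 under BRD0705 (SE; adjusted p = 0.698, edgeR) and turned to 0.01 without control replicate 3. The share of Ndufb4c in the summed counts of both rows was 18.4% ± 0.770 in control, 11.9% ± 2.36 under BRD0705 and 14.8% ± 2.59 under CHIR (SD, n = 3 each). It was 12.2%, 14.1% and 9.40% in the BRD0705 libraries, below all controls (17.8% to 19.3%), and 12.2%, 17.3% and 14.9% under CHIR, also below. The log2 ratio of Ndufb4c to Ndufb4 counts differed from control by -0.76 under BRD0705 (exact permutation p = 0.1, two-sided) and by -0.39 under CHIR (exact permutation p = 0.1). With 3 libraries against 3, 0.1 is the smallest p this test can give, and adjusted over the 3 pairs of groups both are 0.15. Between BRD0705 and CHIR the difference was -0.37 (exact permutation p = 0.3, also 0.3 adjusted).

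With the counts of both rows added into 1 row, a fit chosen after seeing that the sequences are identical, the groups were closer. The sum read 75.0, 76.0 and 87.1 CPM in control, 73.3, 67.8 and 69.2 under BRD0705 and 77.0, 79.7 and 85.3 under CHIR. In the sum, the BRD0705 libraries lay below all others, which neither row showed alone. The log2 fold change of the sum against control was -0.17 ± 0.07 under BRD0705 (SE; adjusted p = 0.209, edgeR). Under CHIR it was 0.03 ± 0.07 (SE; adjusted p = 0.856, edgeR). The summed row, which does not depend on how reads were split between both, did not pass, and 6 of 84 subunit rows were then lower under BRD0705.

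**Figure D5:**
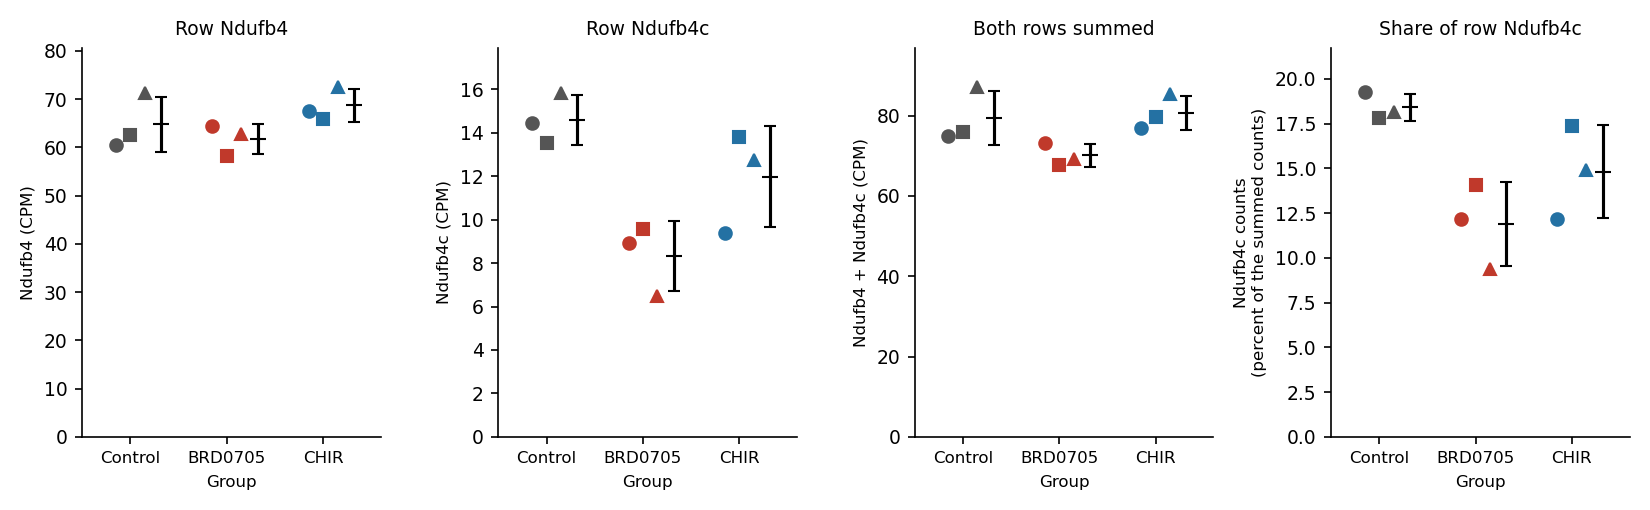
Levels of the rows Ndufb4 and Ndufb4c and of their sum in CPM, and the share of Ndufb4c in the summed counts in percent, per library; shapes are replicates 1 (circle), 2 (square) and 3 (triangle), and black bars the group mean with its SD (n = 3). The share is 17.8% to 19.3% in control and 9.40% to 14.1% under BRD0705.

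Rows without read sharing had the same median. The 40 tested rows with no shared 50-base stretch in their canonical transcript had a median log2 fold change of -0.14 under BRD0705, the value of all 85. Of them 3, Cox4i1, Cox7a2 and Ndufb10, passed as lower (0.534% of all genes) and 0 as higher (0.69% of all genes). At an unadjusted p under 0.05, 19 of the 40 were lower and 2 higher, where 8.08% and 7.77% of all genes were. Between rows, the spread over the 9 libraries was smallest for Atp5b (coefficient of variation 3.46%), Uqcrc1 (4.597%) and Sdhc (4.74%). It was largest for Cox7b2 (29.3%), Ndufb4c (26.8%) and Cox6a2 (25.1%), 2 of which rest on few reads. Across the 85 rows the Spearman correlation of the log2 fold change under BRD0705 with GC content was 0.24, and with transcript length -0.03. These points share their libraries, and over all genes tested the values were 0.27 and 0.13.

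Other genes of the pathway were read from lists. Of 9 electron carriers and subunits outside the symbol rule, 0 were higher and 1 lower under BRD0705. This was Cycs, the somatic cytochrome c that carries electrons from complex III to IV. It read 113, 118 and 123 CPM in control, 98.3, 103 and 98.7 under BRD0705 and 122, 118 and 116 under CHIR (log2 fold change -0.24 ± 0.05 SE under BRD0705, adjusted p = 0.0365, edgeR). Cyc1, the cytochrome of complex III, averaged 141 ± 5.19 CPM in control and 128 ± 1.16 under BRD0705 (SD, n = 3 each). Of 50 assembly factors, none passed under BRD0705 and their median was -0.09. Under CHIR, Cox20 was higher, and Timmdc1 and Sdhaf3 lower. Between the inhibitors, Sdhaf1 was higher and Uqcc1 and Atpaf1 lower under BRD0705.

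None of 16 genes of the citric acid cycle and pyruvate dehydrogenase passed in any of the 3 comparisons (edgeR). By unadjusted p under 0.05 alone, 4 of the 16 were lower under BRD0705 (8.08% of all genes) and 0 higher (7.77% of all genes). Of 20 genes of mitochondrial DNA upkeep and biogenesis, Ssbp1, which codes for the mitochondrial single-strand DNA binding protein, fell under BRD0705. It read 49.6, 55.7 and 58.6 CPM in control and 44.8, 45.6 and 43.3 under BRD0705 (log2 fold change -0.29 ± 0.07 SE, adjusted p = 0.0368, edgeR). Under CHIR, Pprc1 was higher, and Tfam and Twnk, which package and unwind mitochondrial DNA, lower. Directly compared, Twnk was higher and Tfb2m and Ssbp1 lower under BRD0705 than under CHIR.

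The 13 protein-coding genes of the mitochondrial genome were higher or not called against control. Some of these rows were unstable: mt-Nd3, mt-Nd4l and mt-Co3 had libraries with 0 reads. Control libraries read 0, 93.4 and 119 CPM for mt-Co3, and mt-Co2 ran from 277 to 1569 reads per library. Under BRD0705 none of the 13 passed and their median log2 fold change was 0.07 (edgeR). By unadjusted p under 0.05 alone, 2 of the 13 were higher (7.77% of all genes) and 0 lower (8.08% of all genes). Under CHIR 3 were higher, mt-Nd1 (0.36), mt-Nd4 (0.39) and mt-Co1 (0.35), with a median of 0.26 over the 13. Directly compared, mt-Nd1 (-0.28, adjusted p = 0.0368, edgeR) and mt-Co1 (-0.29, adjusted p = 0.0377, edgeR) were lower under BRD0705 than under CHIR. The median of the 13 was then -0.23, with 10 below 0, the direction of the nuclear rows in that comparison. Together these genes took 1.42% to 1.52% of counts in control, 1.80%, 1.53% and 1.29% in BRD0705 replicates 1, 2 and 3, and 1.71% to 1.82% under CHIR. In the BRD0705 group the library with the highest nuclear subunit median, replicate 3, had the lowest mitochondrial share.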

How the data were processed

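RNA of 9 libraries was sequenced, 3 per group. The authors deposited a table of whole-number counts per gene, and per the submitters' processing notes mm10, RSEM and DESeq2 were used, listed without roles. RSEM gives estimated counts, so the counts may have been rounded before deposit, and reads that fit several transcripts may have been split between rows. The aligner, annotation and use of strand are not given in the sources used here. Per the labels, the molecule is polyA RNA while the protocol names ribosomal RNA depletion, and 2 RNA extraction kits are named without saying which libraries each was used for. The authors' normalized table was not used.

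Rows that passed edgeR's filterByExpr (minimum count 10) were tested, 15366 of 52264. All 9 libraries entered 1 fit with TMM scaling and edgeR's quasi-likelihood F test (edgeR 4.0.16, R 4.3.3; 6 residual degrees of freedom, common dispersion 0.00356). Calls had a Benjamini-Hochberg adjusted p under 0.05 over all tested genes. Standard errors came from the fold change and its F value. Log2 CPM used a prior count of 2. Shared stretches (of canonical transcripts only), lengths and overlapping exons came from GENCODE vM39, and positions and promoter windows from RefSeq GRCm38.p6. Scripts were tested on simulated data. Genes named are those called in a comparison, those with the 3 highest and 3 lowest fold changes in each, the 2 with the highest level per kb in each complex, rows that were not tested, the Ndufb4 pair, isoform pairs and core subunits (1 is not reported here), and others named beside them were chosen after their values were seen. The members and lists were chosen with earlier results of these data known. Alternatives were other scalings, filters, DESeq2 1.42.0, a replicate block, GC and length correction, a feeder covariate, 2 groups only, and leaving out each library.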

Additional observations from a re-analysis of the deposited data

How the results depend on the processing

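Of the 85 subunit rows, 7 passed under BRD0705 against control, 2 under CHIR against control and 7 between the inhibitors. Without the low-count filter the first count was 15 (1 higher, 14 lower), with 2.28% of all genes passing, and with DESeq2 14, with 1.76% passing. With the feeder marker level as a covariate all 3 counts were 0, while 0, 279 and 879 of all genes passed. Between the inhibitors, 2 passed with scaling by library size alone and 3 with only the 2 groups compared. Leaving out 1 library at a time gave 1 to 15, 0 to 2 and 0 to 7 calls, with 0.135% to 1.96% of all genes passing under BRD0705 against control. The replicate block gave 8, 3 and 6 calls, with 1.44% of all genes passing under BRD0705 against control and 6.33% under CHIR against control. Deviations of same-numbered libraries correlated from -0.09 to 0.08 over 9 pairs, and those of differently numbered libraries from -0.12 to 0.13 over 18. These values cannot tell whether same-numbered libraries shared a batch, which the labels do not say. After correction for GC content and length, the BRD0705 median of -0.14 was -0.0752, and -0.0768 with the replicate block too. With the cause not tested, Ndufb4 under BRD0705 turned to 0.01 with the feeder covariate (0.0075) and without control replicate 3 (0.0146), and Cox7b2 under CHIR to -0.0639 with the feeder covariate and -0.18 without CHIR replicate 2. Without 1 library each, they ran from -0.11 to 0.01 and from -0.18 to 0.47. DESeq2-type size factors in edgeR, CPM of at least 1 and the summed Ndufb4 pair kept each count within 1.5 times. Depth limits Cox6a2, Cox7b2 and Ndufb11b most, and 3 libraries per group limit all calls.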
